A study of Homo sapiens with 20 samples.

Results

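K562 is a human leukaemia line that carries the Philadelphia translocation, which joins the 5′ part of BCR on chromosome 22 to the greater part of ABL1 on chromosome 9. The fusion protein is a constantly active tyrosine kinase. It signals through adaptors such as CRKL and GAB2 and through the transcription factors STAT5A and STAT5B. STAT5 in turn drives SOCS2, CISH and PIM1, of which SOCS2 and CISH restrain cytokine signalling by the JAK kinases and PIM1 is a survival kinase. These genes (BCR, ABL1, CRKL, GAB2, JAK2, STAT5A, STAT5B, SOCS2, CISH and PIM1) were described across the libraries of a series on NAT10, the enzyme that acetylates cytidine in RNA to N4-acetylcytidine (ac4C). The 10 genes were chosen by name as the driver of the line and its JAK-STAT feedback, with earlier results of these data known. All 10 had an identifier among the 60616 of the RNA-seq table and the 20401 of the Ribo-seq table, and all 10 passed the filter on low counts in both.

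The series compared parental K562 cells (wild type) with a K562 derivative that lacks an exon of NAT10 after CRISPR-Cas9 deletion (knockout). Both were grown in the same medium, and both carry BCR-ABL. The labels do not say whether the knockout line is 1 clone, nor whether its replicates were cultured apart. The p-values therefore speak only of the spread among the libraries at hand, part or all of which may be technical. RNA-seq and Ribo-seq, which sequences the RNA fragments protected by ribosomes (footprints) after cycloheximide treatment, had 2 libraries per genotype each. RNA immunoprecipitation with an ac4C antibody and with IgG had 1 merged peak list per antibody and genotype.

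RNA-seq totals ran from 10388717 to 18778485 counts per library and Ribo-seq totals from 621287 to 1220308. The 2 knockout RNA-seq libraries were nearly as alike as repeat draws from 1 library (2.99% above counting noise), whereas the wild type pair differed by 12.5 times that noise. They were therefore counted as 1 sample, and the fit took the spread of the lone sample to equal that of wild type. NAT10 itself (ENSG00000135372.9) had 49.9 and 49.3 counts per 1000000 (CPM) of RNA in knockout against 139 and 144 in wild type, and 55.4 and 48.3 CPM of footprints against 176 and 188. Gene counts do not show which exon is missing. All 10 erythroid markers that fit K562 were counted in every library, with a summed RNA level of 1576 to 1598 CPM in knockout and 1432 to 1464 in wild type. Within this sum 5 of the 10 markers rose in knockout RNA and 2 fell, among them HBZ (2.05), HBG1 (1.17) and TAL1 (0.53) upward and LMO2 (-0.70) downward on the log2 scale. The 5 megakaryocyte markers summed to 8.90 to 9.37 CPM in knockout and 23.3 to 26.6 in wild type, with GP9, PF4 and PPBP at 0 counts in every library. Only 1 of the 5, ITGA2B, was over 1 CPM of RNA. The 6 granulocyte and monocyte markers summed to 30.0 to 31.9 CPM against 63.4 to 68.3, and only 2 of them, CD33 and LYZ, were over 1 CPM of RNA. Of the 6 lymphocyte markers, 4 or 5 had RNA counts in a library, with a sum of 8.25 to 9.06 CPM. MS4A1 was at 0 counts in every library. Of the 3 tested in RNA, PTPRC was called higher in knockout (log2 fold change 2.24). It was low, at 4.59 and 4.05 CPM against 0.963 and 0.864 in wild type. The median of the 3 was -0.62 and the lowest value -0.79. The 6 fibroblast and epithelial markers summed to 34.24 to 37.25 CPM in knockout and 44.17 to 51.79 in wild type, with 2 of them over 1 CPM. Some lineage markers thus differed between the genotypes alongside the signalling genes, and their part in the results that follow was not tested.

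SOCS2, JAK2 and GAB2 rose in knockout RNA, and SOCS2 rose in knockout footprints as well. By edgeR's quasi-likelihood test with adjustment over all genes, 3 of the 10 genes were called higher in RNA and 0 lower. Over all 16277 genes tested in RNA, 5.17% were called higher and 8.79% lower. In footprints 1 of the 10 was called higher and 0 lower, against 1.47% higher and 3.87% lower of 8887 genes. The median log2 fold change (knockout minus wild type) of the 10 genes was 0.17 in RNA and -0.01 in footprints, where the median of all tested genes was 0.00 in each. At an unadjusted p under 0.05, 4 of the 10 were higher and 2 lower in RNA, where 12.7% of all tested genes were higher and 16.2% lower. In footprints 1 was higher and 1 lower, against 9.16% and 11.7%. DESeq2 called 4 of the 10 in RNA (7.07% of 14741 genes) and 0 in footprints (2.55% of 6512). The shares over all genes were not matched to the 10 genes for level. In bulk libraries such as these, a change in the share of cells that express a gene and a change in its RNA per cell cannot be told apart.

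**Figure D1:**
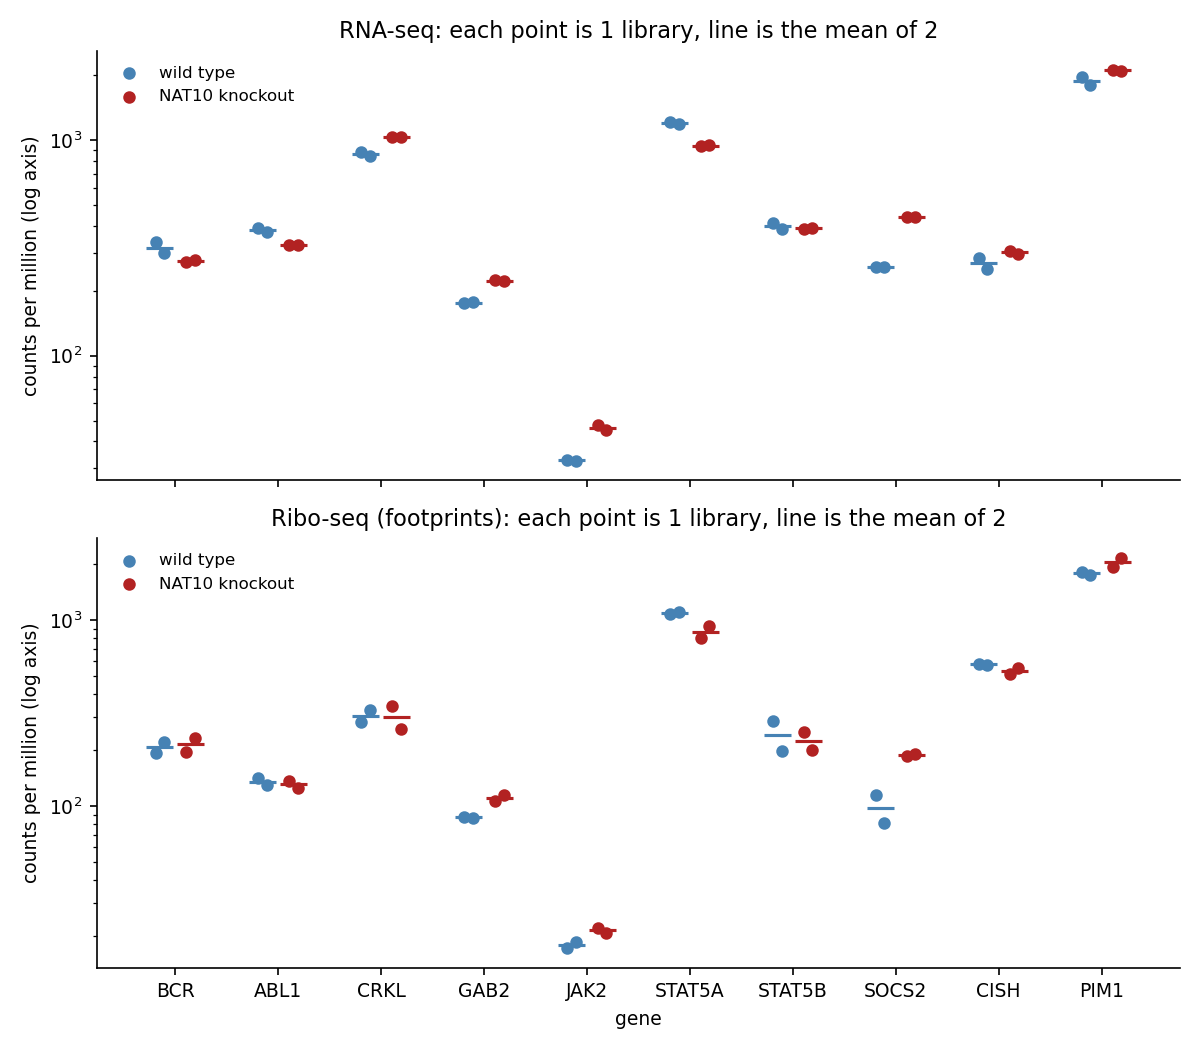
Levels of the 10 genes in CPM (log axis) in RNA-seq (upper panel) and Ribo-seq (lower panel), with 1 point per library and a line at the mean of the 2 libraries of a genotype; values are to be compared within a gene, since the axis is not scaled to transcript length. SOCS2 in knockout lies above wild type in both panels (440 and 441 against 258 and 259 CPM of RNA), while STAT5A lies below it in both.

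Levels between genes were compared per kilobase of the longest protein-coding transcript of each gene in the peak lists. PIM1 RNA was the most abundant per length, at 668 to 781 CPM per kilobase over the 4 RNA-seq libraries. STAT5A followed at 218 to 282 and CRKL at 158 to 195, above the other STAT (STAT5B) and the other adaptor (GAB2) of the list. CISH read 116 to 141 CPM per kilobase, STAT5B 75.9 to 81.1 and SOCS2 69.0 to 118. The RNA assigned to the fusion partners was lower, at 58.3 to 70.3 CPM per kilobase for ABL1 and 40.1 to 49.5 for BCR. GAB2 read 28.7 to 36.7 and JAK2, the lowest of the 10, 4.63 to 6.75. In wild type, SOCS2 (69.0 and 69.3) lay within the range of ABL1 (67.1 and 70.3), and in knockout SOCS2 at 118 and 118 lay between CISH and STAT5B. No other neighbours in this order overlapped within a genotype.

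BCR (ENSG00000186716.21) and ABL1 (ENSG00000097007.19) are the partners of the fusion. Counts per gene take in reads of the fusion transcript and of the unfused alleles, which cannot be told apart here. BCR also has partial pseudogene copies on chromosome 22, and the treatment of reads shared with them is not given in the sources used for this text. BCR RNA was 272 and 277 CPM in knockout against 336 and 299 in wild type, and ABL1 RNA was 326 and 325 against 392 and 374. In both genes the knockout values lay below the wild type values without overlap. The knockout RNA libraries were counted as a lone sample, so such separation in RNA, here and for the genes below, is only descriptive. It adds no evidence of a change beyond the fit, and the share of all genes without overlap is not given. The log2 fold changes in RNA were close to each other, -0.20 for BCR (SE 0.089, interval -0.41 to 0.00, edgeR adjusted p = 0.176) and -0.23 for ABL1 (SE 0.086, interval -0.43 to -0.03, edgeR adjusted p = 0.121), and neither passed the threshold of 0.05. All intervals on fold changes are 95% intervals of the fit.

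In footprints BCR read 196 and 233 CPM in knockout, against 194 and 221 for wild type, and ABL1 137 and 126 against 142 and 130. The genotypes overlapped in both genes. The log2 fold change was 0.01 (SE 0.17, interval -0.35 to 0.37, edgeR adjusted p = 0.985) for BCR and -0.07 (SE 0.17, interval -0.44 to 0.29, edgeR adjusted p = 0.846) for ABL1. The direction for BCR footprints changed when a library was left out, to -0.12 without knockout replicate 2 and -0.09 without wild type replicate 1.

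Genes beside the fusion partners on the same chromosome arms gave a local comparison. Of 12 listed genes on the 5′ side of BCR, 10 were tested in RNA and 0 passed, with a median log2 fold change of -0.12 and a range from -0.50 to 0.15; 3 were lower at an unadjusted p under 0.05 and DESeq2 called 1. In footprints 8 were tested and 2 fell. SDF2L1 (a chaperone cofactor of the endoplasmic reticulum) fell by 0.68 and the tumour antigen gene PRAME by 0.43 on the log2 scale. DESeq2 called 1 of this list in footprints. Of 5 listed genes on the 3′ side of ABL1, 3 were tested in RNA and 0 passed (edgeR; 0 also at an unadjusted p under 0.05 and with DESeq2): the nuclear pore gene NUP214 at -0.04, AIF1L at 0.00 and FIBCD1 at 0.34. EXOSC2, first listed with them, lies on the other side of ABL1 in RefSeq gene order and rose by 0.29 (SE 0.077, edgeR adjusted p = 0.0415). Of the 9 genes on the 3′ side of BCR, 6 were tested in RNA, and MIF rose (0.41) while MMP11 fell by 1.29. MMP11 was low, at 2.04 and 1.92 CPM in knockout against 5.2 and 4.56 in wild type. DESeq2 called fewer of these genes in RNA than edgeR. Of the 7 on the 5′ side of ABL1, EXOSC2 included, all 7 were tested, with a median of -0.16. The other calls were GPR107, which fell by 0.44, and ASS1, which fell by 0.82. DESeq2 called fewer of the 7 in RNA than edgeR.

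The peak lists of the immunoprecipitation give positions along transcripts, and on BCR they ended about midway along the transcript. On BCR-201, 6783 bases long, peaks ended at base 3575 in the knockout ac4C list and 3574 in the knockout IgG list, and at 3399 and 3488 in the corresponding wild type lists. The farthest peak in any list thus ended at 52.7% of the transcript. Among 680 protein-coding transcripts of at least 5000 bases with at least 5 peak summits in every list, 12 (1.76%), BCR-201 among them, reached no further, and the median reach was 98.7%. ABL1-201, 5578 bases long, had its last peak base at 5562, or 99.7% of its length, in the knockout ac4C list. Its first peak base was 67 in that list and 141 in the knockout IgG list. In wild type it was 284 (ac4C) and 273 (IgG). The first peak base of BCR-201 also differed, at 17 (ac4C) and 28 (IgG) in knockout and 877 and 881 in wild type. CRKL-201 reached 100%, GAB2-202 99.3% and STAT5B-201 99.9%. JAK2-201 had peaks to base 3646 of 7023, but with at most 6 summits in a list and 0 in the wild type ac4C list it had too few to be set against those transcripts.

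**Figure D2:**
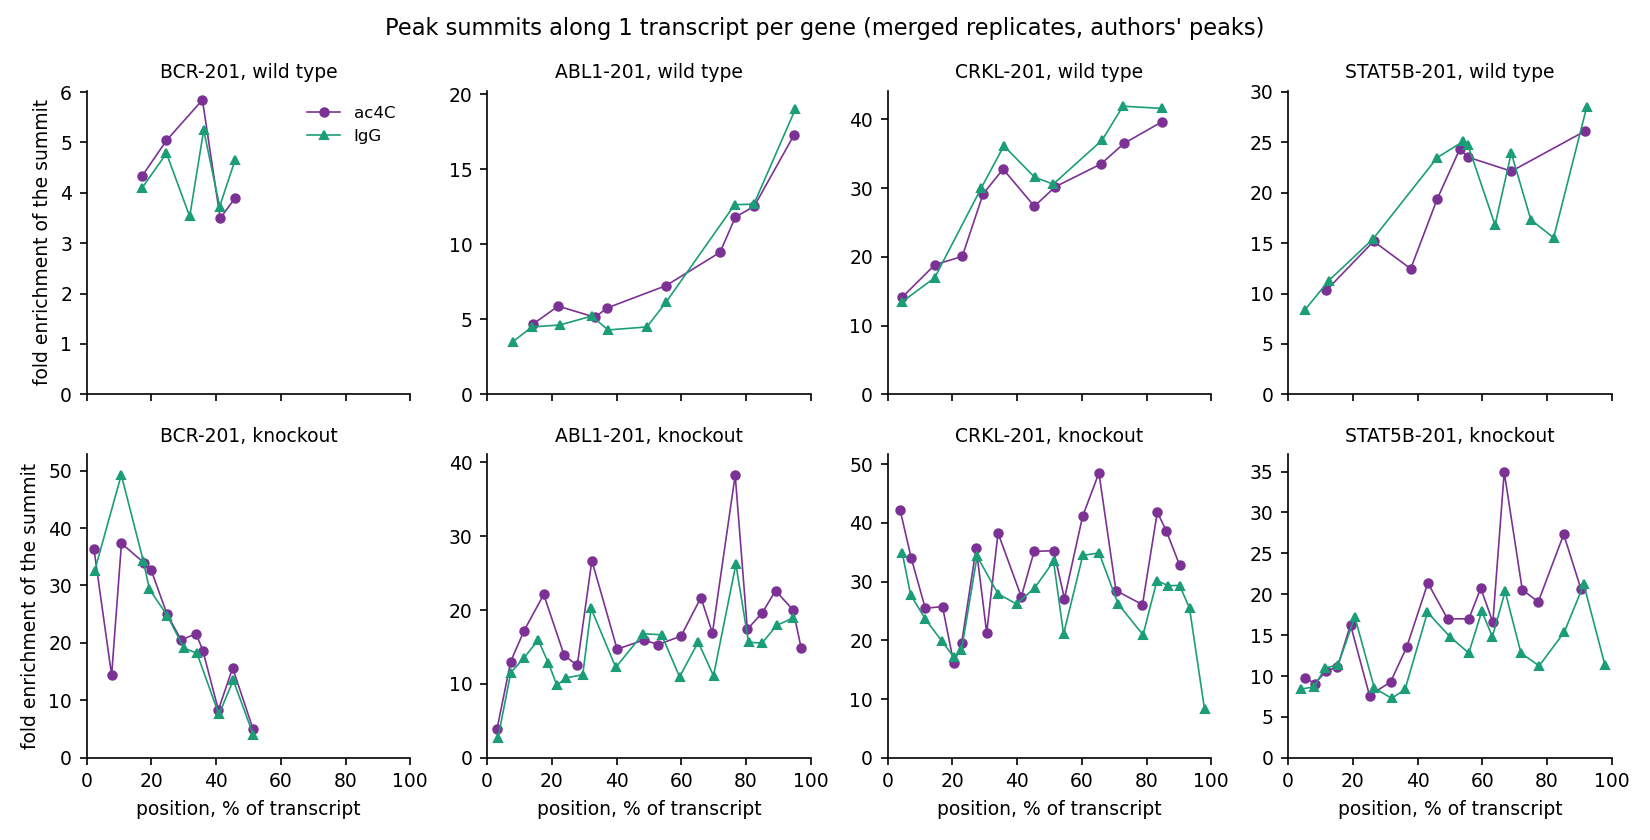
Summits of the authors' peaks along 1 transcript of BCR, ABL1, CRKL and STAT5B, with position as percent of transcript length (x axis) and the authors' fold enrichment over input (y axis, a separate scale in each panel), for the ac4C antibody (circles) and IgG (triangles); lines join summits of 1 list, replicates were merged before peak calling and there are no error bars. BCR-201 has no summit beyond base 3493 of 6783 in any of the 4 lists. The last summits of ABL1-201, CRKL-201 and STAT5B-201 lie at 84.8% of the length or beyond in every list. The IgG summits follow the ac4C summits.

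The fold enrichment of a peak is the authors' value. Folds of the antibody and of IgG are set side by side within a genotype, as a description with no test. Along BCR-201 in the knockout ac4C list, the highest of 12 summits had a fold of 37.3 and the lowest 5.00, with the lowest values toward base 3575, and the IgG list had a highest fold of 49.3 and a lowest of 3.99. In wild type, the 5 ac4C summits of BCR-201 lay between 3.49 and 5.84 and the 6 IgG summits between 3.53 and 5.24. The ac4C antibody and IgG thus gave folds of the same order on BCR in each genotype.

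CRKL and GAB2 are adaptors of the fusion kinase that pass its signal to RAS and PI3K. CRKL RNA (ENSG00000099942.13) was 1034 and 1040 CPM in knockout against 885 and 847 in wild type. The knockout values were higher without overlap, but the difference did not pass (log2 fold change 0.26, SE 0.093, interval 0.05 to 0.48, edgeR adjusted p = 0.102). DESeq2 gave CRKL RNA an adjusted p of 0.0327. Footprints of CRKL read 344 and 259 CPM against 282 and 330. There the genotypes overlapped, and the log2 fold change was -0.04 (SE 0.17, interval -0.40 to 0.33, edgeR adjusted p = 0.929), which turned to 0.13 without knockout replicate 2 and 0.08 without wild type replicate 2.

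GAB2 RNA (ENSG00000033327.13) was 224 and 221 CPM in knockout against 175 and 177 in wild type. Both knockout libraries were higher, by 1.26 times (log2 fold change 0.34, SE 0.078, interval 0.16 to 0.52, edgeR adjusted p = 0.0264). GAB2 was called in each of the 8 tested alternatives. GAB2 footprints were 107 and 114 CPM against 87.7 and 86.7, again without overlap. The log2 fold change in footprints was close to that in RNA but had a wider interval and did not pass (0.30, SE 0.18, interval -0.09 to 0.69, edgeR adjusted p = 0.366).

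Of 18 other adaptors and substrates of BCR-ABL, 17 were tested in RNA: 0 rose and 3 fell, with a list median of 0.06. At an unadjusted edgeR p under 0.05, 4 were higher and 4 lower. INPP5D, the lipid phosphatase SHIP1, fell by 2.68 in log2 units (SE 0.22, adjusted p = 0.000476 by edgeR), from 12.2 and 12.5 CPM in wild type to 2.04 and 1.81 in knockout. The docking proteins DOK2 and DOK1 fell by 3.42 and by 0.63. All 3 are known as negative regulators of tyrosine kinase signalling, and INPP5D and DOK2 were at most 12.5 CPM in any library. In footprints 14 were tested and 0 passed (edgeR; at an unadjusted p under 0.05, 4 were higher and 2 lower, and DESeq2 called 0), with GRB2 at 0.40 and LYN at 0.38. Of 16 genes of the RAS and PI3K pathways, all 16 were tested in RNA, 3 rose and 1 fell. The PI3K subunit gene PIK3CB rose by 0.33 (SE 0.070, edgeR adjusted p = 0.0203), and the leukocyte PI3K subunit gene PIK3CD fell by 0.82. PIK3CD was also the only call of this list in footprints, where it fell by 1.01 (SE 0.23, edgeR adjusted p = 0.0271). DESeq2 called 0 of this list in footprints and fewer than edgeR in RNA.

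JAK2 (ENSG00000096968.14) is the kinase bound to the erythropoietin and thrombopoietin receptors. JAK2 RNA was 47.4 and 45.3 CPM in knockout against 32.7 and 32.5 in wild type. The knockout values were 1.42 times those of wild type and did not overlap with them (log2 fold change 0.51, SE 0.10, interval 0.27 to 0.75, edgeR adjusted p = 0.016). With DESeq2 the adjusted p was 0.0906, and the call stood in the other 7 tested alternatives. JAK2 footprints were sparse, at 22.2 and 20.9 CPM against 17.2 and 18.7. They were higher in both knockout libraries but by less than the fit could resolve (log2 fold change 0.24, SE 0.34, interval -0.49 to 0.98, edgeR adjusted p = 0.728).

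Of 8 other JAKs and STATs, 7 were tested in RNA, with a median of -0.03, and 1 passed. TYK2 rose by 0.26 at the threshold itself (SE 0.071, edgeR adjusted p = 0.04996), and DESeq2 called 0 of the list. None of the 6 tested in footprints passed (edgeR; 0 at an unadjusted p under 0.05 and 0 with DESeq2), with STAT3 at -0.13 and TYK2 at 0.01. Of 15 cytokine receptor genes, 11 were tested in RNA, their median was -0.34 and 1 passed: IFNGR1, a chain of the interferon gamma receptor, fell by 0.94 (SE 0.16, edgeR adjusted p = 0.00822). In footprints 6 receptor genes were tested and 0 passed (edgeR; 1 was lower at an unadjusted p under 0.05, and DESeq2 called 0). The erythropoietin receptor EPOR read 34.9 and 33.8 CPM against 50.0 and 43.9 (log2 fold change -0.48, edgeR adjusted p = 0.285).

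STAT5A and STAT5B are neighbouring genes on chromosome 17 that code for near-identical proteins, and reads shared between them may have been counted for either. STAT5A RNA (ENSG00000126561.17) was 937 and 950 CPM in knockout against 1213 and 1187 in wild type. Footprints of STAT5A read 799 and 935 CPM against 1078 and 1105. In both assays each knockout library was below each wild type library. The log2 fold change was -0.34 in RNA (SE 0.097, interval -0.57 to -0.12) and -0.37 in footprints (SE 0.13, interval -0.65 to -0.08). Neither passed, with edgeR adjusted p = 0.0532 in RNA and 0.128 in footprints. The RNA value lay near the threshold, and 5 of its 8 tested alternatives called it, with edgeR and DESeq2 adjusted p from 0.000807 to 0.0609. Without knockout replicate 2 the edgeR adjusted p was 0.0493 in RNA and, leaving out knockout replicate 2 of Ribo-seq, 0.0417 in footprints, where 2 of 9 tested alternatives called it.

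STAT5B RNA (ENSG00000173757.10) was 386 and 393 CPM in knockout against 412 and 388 in wild type, and its footprints were 251 and 200 CPM against 286 and 199. The genotypes overlapped in both assays. The log2 fold change was -0.03 in RNA (SE 0.087, interval -0.24 to 0.17, edgeR adjusted p = 0.841) and -0.13 in footprints (SE 0.19, interval -0.55 to 0.29, edgeR adjusted p = 0.752). Without wild type replicate 1 of Ribo-seq the footprint value was 0.16. The difference between STAT5A and STAT5B in their response was not tested.

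**Figure D3:**
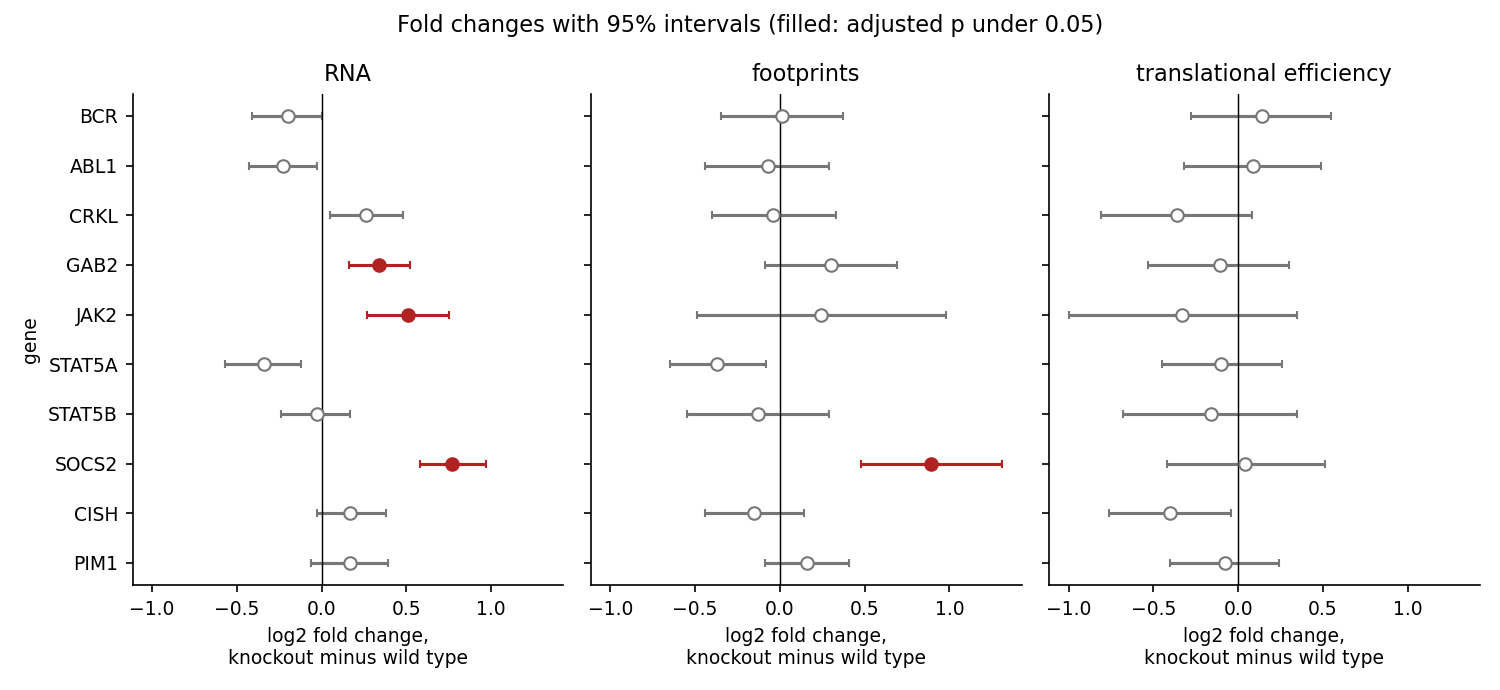
Log2 fold changes, knockout minus wild type, of the 10 genes in RNA, footprints and translational efficiency (footprints relative to RNA), with 95% intervals of the edgeR fit; filled points passed an adjusted p of 0.05. SOCS2 is filled in RNA (0.77) and footprints (0.89), GAB2 and JAK2 are filled in RNA only, and no point is filled for translational efficiency.

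SOCS2, CISH and PIM1 are targets of STAT5. SOCS2 (ENSG00000120833.14), which targets signalling proteins for degradation, had the largest difference of the 10 genes in RNA and in footprints. SOCS2 RNA was 441 and 440 CPM in knockout against 258 and 259 in wild type. The knockout level was 1.71 times that of wild type (log2 fold change 0.77, SE 0.084, interval 0.58 to 0.97, edgeR adjusted p = 0.00138), and SOCS2 was called in each of the 8 tested alternatives, with values from 0.73 to 0.84 over all 10. Footprints of SOCS2 read 186 and 192 CPM against 115 and 81.2. The 2 wild type libraries differed more from each other than the 2 knockout libraries did, and all knockout values lay above them. The footprint difference was 1.86 times (log2 fold change 0.89, SE 0.19, interval 0.48 to 1.31, edgeR adjusted p = 0.0178). Without wild type replicate 2, the lower of that pair, it was 0.68 with an edgeR adjusted p of 0.129, without wild type replicate 1 it was 1.18, and DESeq2 gave an adjusted p of 0.0605.

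Whether reads were counted by strand is not stated in the labels or file headers. SOCS2-AS1, an antisense gene beside SOCS2 that was looked up after the SOCS2 values were seen, had 15.0 and 20.0 CPM of RNA in knockout against 11.6 and 12.7 in wild type (log2 fold change 0.53, SE 0.16, edgeR adjusted p = 0.0673). In counts it was far below SOCS2 in every library.

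CISH (ENSG00000114737.16) codes for another SOCS family protein that is induced by STAT5. STAT proteins bind palindromes of the form TTCNNNGAA. In the RefSeq promoter windows of GRCh38.p14, which run from 250 bases before to 50 bases after a gene start, 7.66% of 35116 windows held at least 1 such palindrome, and 7 windows (0.0199%) held at least 4. The CISH window held 4. The palindrome reads the same on both strands, so 1 search covers both. A window was found for 9 of the 10 genes (all but SOCS2), 15 windows in all, and no other of those windows held the palindrome. The related form with 4 bases between TTC and GAA, searched in the same way, was found once, in 1 of the STAT5A windows, where no palindrome of the first form overlaps it (6.44% of all windows held this form). The 250 bases before the starts of CISH (chr3:50611775-50612024, minus strand) and PIM1 (chr6:37169902-37170151, plus strand) are shown from 5′ to 3′ to set a STAT5 target with the palindrome beside one without it in this window; capitals mark TTCNNNGAA.
CISH: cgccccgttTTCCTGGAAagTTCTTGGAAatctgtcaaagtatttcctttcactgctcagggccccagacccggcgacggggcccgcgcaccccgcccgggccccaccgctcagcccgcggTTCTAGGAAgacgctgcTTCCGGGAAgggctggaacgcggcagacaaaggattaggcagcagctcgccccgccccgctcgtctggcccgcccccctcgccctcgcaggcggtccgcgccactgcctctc
PIM1: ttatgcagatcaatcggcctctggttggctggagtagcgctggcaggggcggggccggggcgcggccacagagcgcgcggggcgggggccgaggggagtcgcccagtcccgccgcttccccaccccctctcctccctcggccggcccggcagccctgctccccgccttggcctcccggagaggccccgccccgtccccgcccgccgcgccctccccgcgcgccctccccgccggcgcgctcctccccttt

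The 4 palindromes of CISH begin 241, 230, 129 and 112 bases before the start, in 2 close pairs. The G and C content of the printed bases is 68.8% for CISH and 79.6% for PIM1. A match is a description of the letters and says nothing of binding in these cells, since no STAT5 binding data were used here.

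CISH RNA was 305 and 298 CPM in knockout against 285 and 251 in wild type, whereas footprints were 513 and 552 CPM in knockout against 580 and 576 in wild type. The order of the genotypes was therefore opposite in the assays, higher in knockout RNA and lower in knockout footprints, each without overlap. Neither difference passed: the log2 fold change was 0.17 in RNA (SE 0.088, interval -0.03 to 0.38, edgeR adjusted p = 0.242) and -0.15 in footprints (SE 0.13, interval -0.44 to 0.14, edgeR adjusted p = 0.547).

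PIM1 (ENSG00000137193.14), a serine/threonine kinase that supports survival, was the most abundant of the 10 genes per length. PIM1 RNA was 2111 and 2104 CPM in knockout against 1961 and 1806 in wild type, and its footprints were 1928 and 2165 CPM against 1827 and 1752. Knockout values were higher without overlap in both assays, by a log2 fold change of 0.17 in RNA (SE 0.097, interval -0.06 to 0.39, edgeR adjusted p = 0.306) and 0.16 in footprints (SE 0.12, interval -0.09 to 0.41, edgeR adjusted p = 0.456). These intervals exclude a rise of PIM1 as large as that of SOCS2 RNA at 0.77.

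Most tested genes among the wider sets of STAT5 targets and of brakes on the pathway were not called. Of 15 other STAT5 targets, 12 were tested in RNA, with a median of -0.04, and 1 rose and 2 fell. The cell cycle inhibitor CDKN1A rose by 1.06 (SE 0.10, edgeR adjusted p = 0.000793), and the cyclins CCND3 and CCND1 fell by 0.39 and by 0.33. CCND3 also fell in footprints, by 0.54 (SE 0.13, edgeR adjusted p = 0.033), the only call among the 10 tested there. DESeq2 called 1 of this list in footprints and fewer than edgeR in RNA. CDKN1A has other regulators as well, and the list does not separate the regulators of its genes. Of 17 further brakes (SOCS, PIAS and SH2B proteins and phosphatases), all 17 were tested in RNA, with a median of 0.04, and 1 rose and 2 fell. The phosphatase gene PTPRC, also known as CD45, rose by 2.24 but was low, at 4.59 and 4.05 CPM in knockout against 0.963 and 0.864 in wild type. SOCS3, another STAT target of the SOCS family, fell by 0.54 (SE 0.091, edgeR adjusted p = 0.00813), from 79.5 and 68.5 CPM to 52.2 and 49.5. SOCS3 and SOCS2 thus changed in opposite directions in RNA. The phosphatase gene PTPN6 fell by 1.52 and was also low, at most 3.93 CPM. DESeq2 called fewer of the brakes in RNA than edgeR. In footprints 13 brakes were tested, with a median of 0.40, and 0 passed (edgeR; at an unadjusted p under 0.05, 3 were higher and 1 lower, and DESeq2 called 0), with PTPN1 at -0.28 and SH2B3 at 0.45.

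**Figure D4:**
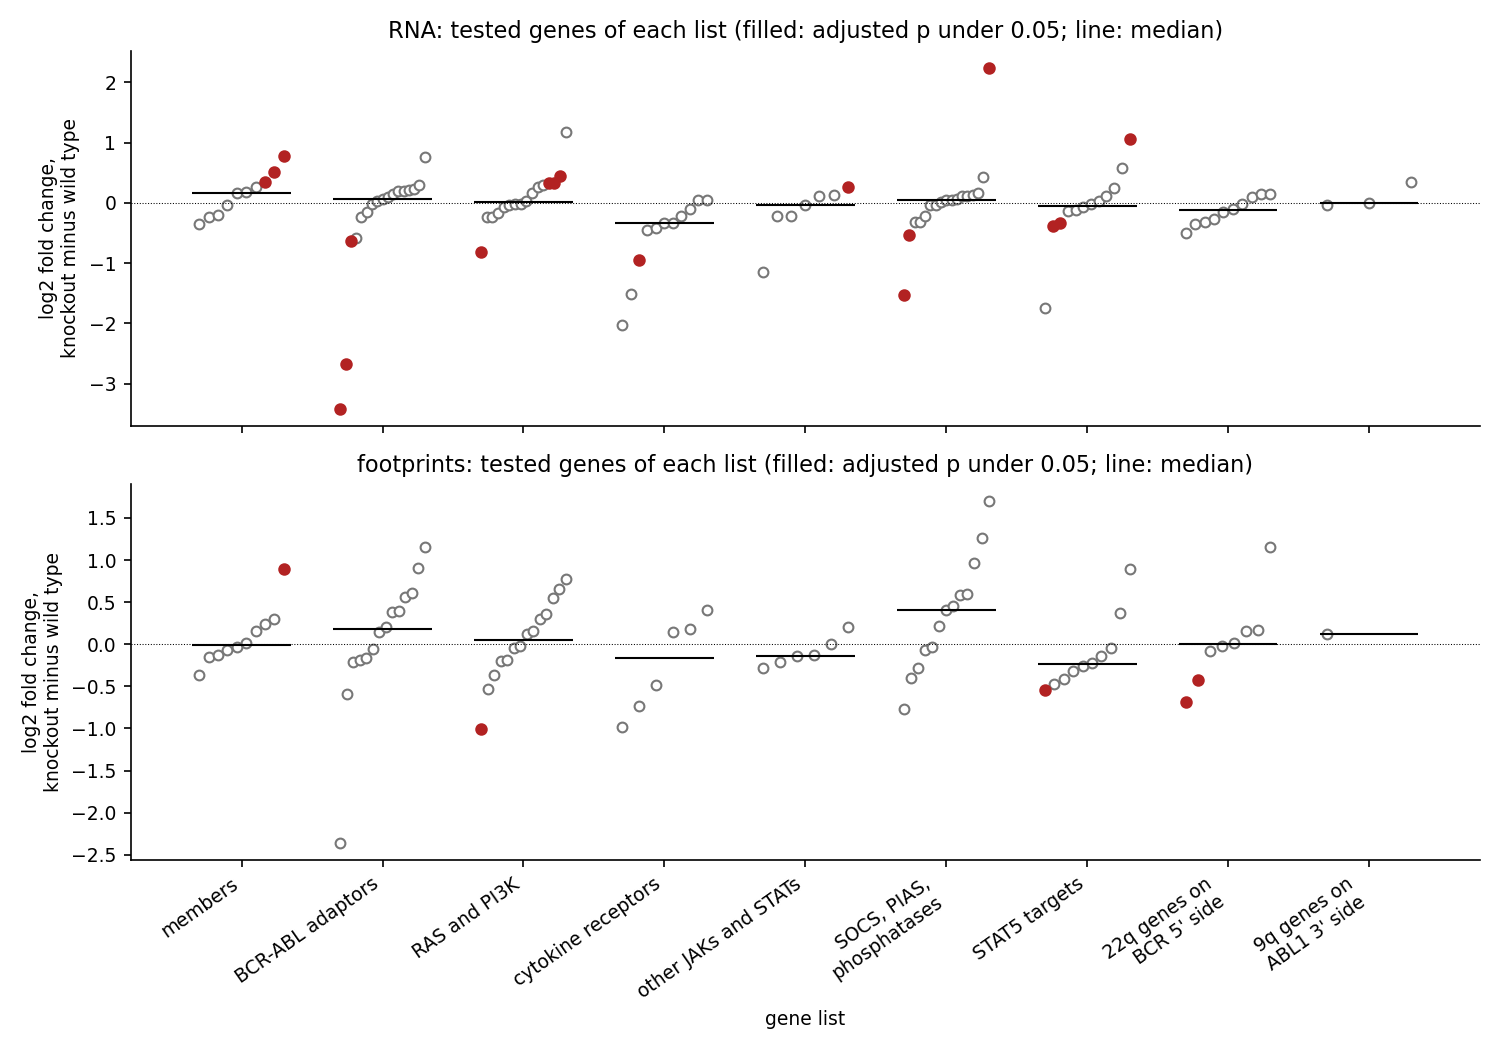
Log2 fold changes, knockout minus wild type, of every tested gene of the 10 members and of 8 related gene lists, in RNA (upper panel) and footprints (lower panel); filled points passed an edgeR adjusted p of 0.05 and lines are medians. The RNA medians lie from -0.12 (genes on the 5′ side of BCR) to 0.17 (the members), except for the cytokine receptors (-0.34). The median of the brakes in footprints is 0.40 (0.00 for all tested genes). The single filled point of the members in footprints is SOCS2 (0.89).

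A change of translational efficiency, that is of footprints relative to RNA, was tested as an assay by genotype interaction. Of the 10 genes 0 passed by edgeR, against 1 of all 10299 tested genes (0.00971%); no other tool was run on this interaction. At an unadjusted p under 0.05, 1 of the 10 was lower in knockout and 0 were higher, against 6.28% and 3.79% of all tested genes, so the share was near the background. The 1 gene was CISH, with a log2 change of efficiency of -0.40 (SE 0.17, interval -0.76 to -0.04, edgeR adjusted p = 0.48). CRKL followed at -0.36 (SE 0.21, interval -0.81 to 0.08, edgeR adjusted p = 0.583) and JAK2 at -0.33 (SE 0.31, edgeR adjusted p = 0.76). The other 7 lay between -0.16 and 0.14. For SOCS2 the change of efficiency was 0.04 (SE 0.22, interval -0.42 to 0.51, edgeR adjusted p = 0.972), so its footprints rose by about as much as its RNA. The median of the 10 genes was -0.11 and that of all tested genes -0.06.

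The level of efficiency differed between the 10 genes far more than between genotypes. It was expressed as log2 of footprints per RNA minus the median over all genes, and as the percentile among 10299 genes. CISH had the highest level of the 10, at 0.88 (SE 0.13) in knockout and 1.23 (SE 0.11) in wild type, or percentiles 82.0 and 87.2. PIM1 at percentiles 50.7 and 51.6 and STAT5A at 47.3 and 49.5 lay near the middle of all genes. BCR lay at 38.6 and 34.1 and STAT5B at 26.0 and 31.4. The lowest were CRKL at 8.01 and 14.3, ABL1 at 14.0 and 14.4 and SOCS2 at 15.3 and 16.3, with GAB2 (19.4 and 23.8) and JAK2 (17.7 and 27.3) above them. SOCS2 and CISH, members of 1 protein family, thus stood near opposite ends of the scale in both genotypes. These levels set footprints against the RNA counts of the whole gene, so a long untranslated region lowers them, and neither the labels nor the file headers state on which part of a gene footprints were counted.

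**Figure D5:**
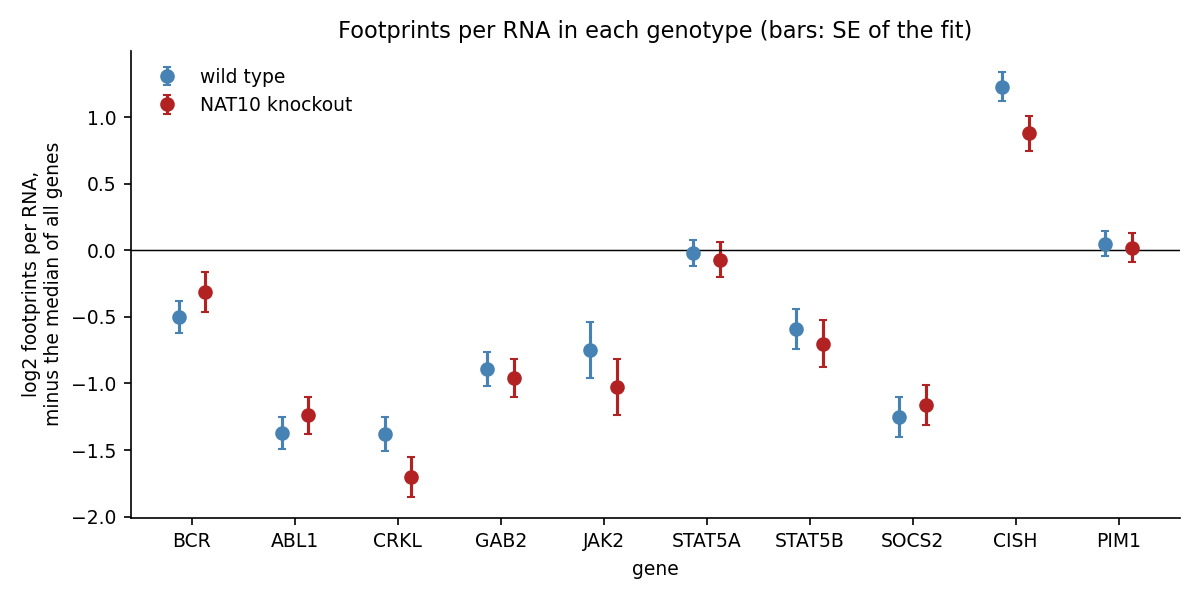
Footprints per RNA of the 10 genes in each genotype, as log2 minus the median of all 10299 genes (line at 0), with bars for the SE of the fit. CISH lies above the median in both genotypes (0.88 in knockout, 1.23 in wild type), PIM1 and STAT5A lie near it, and the other 7 genes lie below it.

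All 10 genes had peaks in the knockout ac4C list and 9 in the wild type ac4C list, where JAK2 had 0. The IgG lists had peaks on all 10 genes in both genotypes. Over all transcripts of the 10 genes there were 403 ac4C and 386 IgG summits in knockout against 205 and 208 in wild type. Of 74 ac4C regions in knockout, 69 (93.2%) were overlapped by an IgG region on the same transcript by at least 1 base, against 79.6% of the 80709 regions of all genes. In wild type all 51 regions (100%) were overlapped, against 93.3% of 45288. The 5 knockout regions with no IgG overlap were on GAB2 (3 of 8), JAK2 (1 of 6) and SOCS2 (1 of 16). With overlap of at least 50% of the region, the shares were 86.5% against 74.1% in knockout and 100% against 91.7% in wild type. On several of these genes 1 region ran along nearly the whole transcript in both lists. On ABL1-201 in knockout it ran from 67 to 5562 (ac4C) and 141 to 5543 (IgG). Such long regions overlap almost by necessity, and the shares were not matched for region length. Regions on different transcripts of 1 gene can be the same stretch of RNA, so these counts are not independent.

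The folds of the ac4C antibody and of IgG were of the same order on these transcripts. The highest summit of PIM1-201 had a fold of 136.5 with the antibody and 116.6 with IgG in knockout, and 164.7 and 173.8 in wild type. In each of the 4 lists PIM1 was at or above percentile 98.9 of all genes by its highest fold. CRKL-201 had highest folds of 48.5 and 34.9 in knockout against 39.7 and 41.9 in wild type, and CISH-201 20.1 and 11.5 in knockout against 27.7 and 26.6 in wild type. SOCS2-205 had 5.21 and 4.70 in knockout against 8.28 and 9.30 in wild type, and GAB2-202 8.86 and 6.41 and then 4.76 and 4.82. STAT5A-201 had 22.4 and 17.2 in knockout against 11.1 and 9.89 in wild type. By the highest fold over all transcripts of a gene, the antibody was above IgG on 8 of the 10 genes in knockout (all but BCR and JAK2), against 46.5% of 16891 genes with peaks in both lists. In wild type it was above IgG on 4 of 9 genes (BCR, CISH, SOCS2 and STAT5A), against 36.5% of 9429. The shares over all genes were not matched to these genes for RNA level or number of summits, and the differences in share were not tested. The lists of the genotypes were called separately on merged replicates, with 162944 summits in the knockout ac4C list and 92194 in the wild type list, so no difference between genotypes was drawn from them.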

How the data were processed

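RNA-seq and Ribo-seq values are whole-number read counts per gene, which the authors deposited per library and which, per the file headers, were made from alignments with duplicates removed. Tools listed in the submitters' processing notes, with no role or version, are STAR, featureCounts, SAMtools, cutadapt, Trimmomatic and DESeq2; the build is GRCh38.p13. Peaks were deposited per antibody and genotype on transcript sequences, each with the authors' fold enrichment ratio over input, −log10 p and q values and a score. The submitters' notes name Bowtie2, MACS2, bedtools and ChIPseeker for these libraries. The peak score was not used.

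CPM are counts per 1000000 of the library total. Genes were tested with edgeR 4.0.16 (R 4.3.3): TMM scaling, filterByExpr, its quasi-likelihood test and p-values adjusted by Benjamini-Hochberg over all tested genes, with a threshold of 0.05. The knockout RNA libraries were summed, which left 1 residual degree of freedom. Translational efficiency was the interaction of assay and genotype over all libraries. The scripts were tested on simulated data. Fits gave a biological coefficient of variation of 9.12% (RNA), 12.0% (footprints) and 7.69% (efficiency). Library totals set the precision: a count of 3 corresponds to 0.160 to 0.289 CPM in RNA-seq and 2.46 to 4.83 in Ribo-seq.

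The members and gene lists were chosen with earlier results of these data known. Named from each further list were up to 4 genes with the lowest adjusted p among those called, or, where none was, up to 2 with the highest mean level; of the genes beside BCR and ABL1 any tested gene could be named. Values of some list genes are not reported here. Promoter sequences are from RefSeq (GRCh38.p14); gene symbols were matched for 60419 of 60616 RNA identifiers and 20352 of 20401 footprint identifiers. Pseudoautosomal Y copies (44 and 18 identifiers) were dropped. Alternatives were other scalings, no filter, DESeq2 1.42.0, unsummed libraries, a replicate block, leaving out each library, and stricter peak thresholds. The signal tracks and the input libraries of the immunoprecipitation were not used here.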

Additional observations from a re-analysis of the deposited data

How the results depend on the processing

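Genes called in RNA (2271) came to 3513 without the filter on low counts, 1042 with DESeq2, 5476 with the knockout libraries kept apart and 4983 with a replicate block added to that. Members called in RNA (3) came to 5 without the filter, 9 with the knockout libraries apart and 8 with the block as well. Leaving out wild type replicate 1 or 2 of RNA-seq left no residual degree of freedom and gave a value with no test. Footprint tests covered 8887 genes in the main fit and with the replicate block, 13666 without the filter and 6512 with DESeq2. They covered 9047 to 9408 genes when a library was left out. Genes called in footprints (475) came to 889 without the filter, 166 with DESeq2 and 1594 with the replicate block, and ranged from 264 to 716 when a library was left out (without wild type replicate 1 and without knockout replicate 2). Members called in footprints (1) were 0 with DESeq2, 2 with the block (SOCS2, and STAT5A at an edgeR adjusted p of 0.00116) and 0 to 2 when a library was left out. Genes called for efficiency (1) were 0 with upper quartile scaling, 71 without the filter, 7 with the knockout libraries apart, 266 with the block as well and 0 to 5 when a library was left out; no member was called in any of these.

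Replicate numbers in the titles are not said to mark a shared batch, and with 2 pairs they could not be shown to: differences within pairs correlated at -0.03 between genotypes in RNA and at 0.23 in footprints. Near-zero values changed sign. In RNA, STAT5B was 0.04 without the filter and 0.00 with DESeq2. In footprints, BCR was 0.00 without the filter, and when a library was left out BCR ranged from -0.12 to 0.15, CRKL from -0.26 to 0.13 and STAT5B from -0.36 to 0.16. For efficiency, STAT5A was 0.01 with the knockout libraries apart and 0.00 with the block, and PIM1 was 0.01 with upper quartile scaling, 0.03 with the libraries apart and 0.02 with the block. When a library was left out, efficiency ranged from -0.02 to 0.29 for ABL1, -0.15 to 0.02 for GAB2, -0.11 to 0.01 for STAT5A, -0.39 to 0.27 for STAT5B, -0.07 to 0.46 for SOCS2 and -0.10 to 0.07 for PIM1. With 1 transcript per gene the members' summits fell in number to 131 (ac4C) and 127 (IgG) in knockout and to 63 and 68 in wild type. Of 320 values of single members under alternatives, 299 had an adjusted p: 256 kept their direction and side of the threshold, 18 passed it newly, 3 no longer passed and 22 changed sign. The other 21 had none and kept their sign. The cause of these changes was not tested, other than that fewer or more samples and genes entered the fit. As an example of depth, JAK2 had 13 to 26 footprint counts per library, and its interval covers both a fall and a rise.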
